A study of Homo sapiens with 12 samples.

Results

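The 10 genes described here encode the enzymes of mitochondrial fatty acid oxidation, and they were taken by name from the pathway: CPT1A, CPT2, ACADVL, ACADM, ACADS, HADHA, HADHB, HADH, ECHS1 and ACAA2. The choice of these genes, and of the lists of related genes below, was made with earlier results of these data known. All 10 members were in the table of 16389 genes, and all 10 were tested in every comparison. Their reads were 0.126% to 0.169% of all counted reads in a library. The cells were HepG2, an established line from a human liver cancer. The LG medium held 5.5 mM glucose and the HG medium 20 mM glucose, and cells stayed in either medium for 48 h. LGV and HGV cells were kept in the same media and then received 1 mM valproic acid (VPA) for 12 h. Each group had 3 libraries. The sources used here do not state when the untreated cells were harvested relative to these 12 h, so VPA and time in culture cannot be told apart.

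Long-chain fatty acids cross into mitochondria as carnitine esters, made by carnitine palmitoyltransferase I on the outer membrane and turned back into acyl-CoA by carnitine palmitoyltransferase II on the inner membrane. The acyl-CoA then passes through a repeating cycle of dehydrogenation, hydration, a further dehydrogenation and thiolysis, which releases acetyl-CoA for the citric acid cycle or, in liver, for ketone bodies. VPA is a branched fatty acid and an inhibitor of histone deacetylases. It enters the same pathway as a substrate and is known for disturbing hepatic fatty acid oxidation and carnitine balance.

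Between 29798442 and 45572694 reads were counted per library, and levels below are CPM, read counts scaled to a common library size with TMM factors. A count of 3 reads, taken as a floor for counting error only, equalled 0.0713 to 0.112 CPM, and every member stood far above it. The 8 hepatocyte markers, among them ALB and APOB, summed to 36499 to 54919 CPM, with group means of 49581 in LG, 36751 in LGV, 50734 in HG and 46711 in HGV. Of the markers of other cells, fibroblast genes summed to 18.8 to 58.3 CPM, nearly all from PDGFRB, with group means of 49.4 CPM in LG, 36.4 in LGV, 24.04 in HG and 30.4 in HGV. COL1A1, a defining fibroblast gene, stayed between 0.125 and 2.64 CPM. The leukocyte list was represented by CD14 alone at 0.630 to 4.73 CPM, and the endothelial list summed to 2.21 to 4.85 CPM. The part of these genes in the results below was not tested.

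The promoters of the members called below are shown first, grouped by comparisons in which they were called. Differences between these groups, and any link of the calls to sequence, were not tested. Each window covers 270 bases before and 30 bases after the start of the canonical transcript on GRCh37, read 5′ to 3′ on the strand of the gene, and capitals mark motif matches on either strand. The motifs searched were the GC box GGGCGG, the CCAAT box, the nuclear receptor half-site AGGTCA, the E-box CACGTG and the cAMP response element TGACGTCA, and a pair of AGGTCA half-sites 1 base apart was searched as well, so that it contains the single half-site. CPT1A (chr11:68609355-68609654, minus strand) was called between media without VPA and with VPA in HG medium.
CPT1A: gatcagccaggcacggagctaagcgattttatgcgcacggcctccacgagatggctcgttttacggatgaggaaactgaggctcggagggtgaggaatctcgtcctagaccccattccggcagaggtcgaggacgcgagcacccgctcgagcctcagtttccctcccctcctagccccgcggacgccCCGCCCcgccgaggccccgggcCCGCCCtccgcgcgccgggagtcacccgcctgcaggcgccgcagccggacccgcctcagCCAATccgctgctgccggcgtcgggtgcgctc
ACADVL (chr17:7122987-7123286, plus strand) and ACAA2 (chr18:47339874-47340173, minus strand) fell with VPA in both media.
ACADVL: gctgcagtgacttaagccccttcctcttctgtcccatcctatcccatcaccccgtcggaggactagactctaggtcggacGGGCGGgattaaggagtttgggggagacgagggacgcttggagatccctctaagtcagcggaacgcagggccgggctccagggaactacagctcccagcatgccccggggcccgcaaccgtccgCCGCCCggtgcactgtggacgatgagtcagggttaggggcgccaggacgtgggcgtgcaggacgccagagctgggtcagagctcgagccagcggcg
ACAA2: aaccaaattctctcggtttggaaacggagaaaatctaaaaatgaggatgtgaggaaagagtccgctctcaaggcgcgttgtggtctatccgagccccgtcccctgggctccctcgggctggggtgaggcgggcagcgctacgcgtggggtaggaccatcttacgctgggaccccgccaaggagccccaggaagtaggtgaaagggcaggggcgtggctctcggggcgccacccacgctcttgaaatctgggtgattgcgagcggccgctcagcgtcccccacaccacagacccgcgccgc
CPT2 (chr1:53662226-53662525, plus strand), ACADS (chr12:121163359-121163658, plus strand) and HADH (chr4:108910775-108911074, plus strand) were higher in HGV than in LGV. ACADS was also called lower with VPA in LG medium.
CPT2: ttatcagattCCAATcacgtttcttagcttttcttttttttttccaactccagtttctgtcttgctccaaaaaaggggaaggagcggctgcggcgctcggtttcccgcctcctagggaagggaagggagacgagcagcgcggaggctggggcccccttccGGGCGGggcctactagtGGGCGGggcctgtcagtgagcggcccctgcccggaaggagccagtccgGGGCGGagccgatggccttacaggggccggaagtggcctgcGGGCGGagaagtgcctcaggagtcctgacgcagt
ACADS: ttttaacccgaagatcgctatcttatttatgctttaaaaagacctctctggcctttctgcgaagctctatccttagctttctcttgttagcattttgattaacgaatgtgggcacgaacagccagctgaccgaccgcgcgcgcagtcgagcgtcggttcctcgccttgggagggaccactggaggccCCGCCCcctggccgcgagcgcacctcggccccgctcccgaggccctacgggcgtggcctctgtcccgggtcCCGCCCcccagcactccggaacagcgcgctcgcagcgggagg
HADH: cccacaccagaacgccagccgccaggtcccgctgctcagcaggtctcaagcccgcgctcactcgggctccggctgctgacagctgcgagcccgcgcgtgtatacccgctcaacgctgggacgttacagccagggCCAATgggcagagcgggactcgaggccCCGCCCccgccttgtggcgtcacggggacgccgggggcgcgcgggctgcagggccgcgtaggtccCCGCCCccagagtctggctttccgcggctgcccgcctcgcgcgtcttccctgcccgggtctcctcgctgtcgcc
ACADM (chr1:76190124-76190423, plus strand) was higher with glucose with and without VPA.
ACADM: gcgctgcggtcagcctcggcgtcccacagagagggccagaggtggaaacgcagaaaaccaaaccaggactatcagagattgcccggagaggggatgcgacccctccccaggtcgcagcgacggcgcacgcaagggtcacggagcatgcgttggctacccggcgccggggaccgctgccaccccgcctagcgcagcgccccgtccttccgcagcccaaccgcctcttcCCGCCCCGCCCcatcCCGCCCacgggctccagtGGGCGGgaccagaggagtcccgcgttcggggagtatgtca
HADHB (chr2:26467537-26467836, plus strand) lies head to head with HADHA. Their canonical starts were 306 bases apart, at 26467500 for HADHA on the minus strand and 26467807 for HADHB on the plus strand, so this window takes in most of the stretch that both genes start from.
HADHB: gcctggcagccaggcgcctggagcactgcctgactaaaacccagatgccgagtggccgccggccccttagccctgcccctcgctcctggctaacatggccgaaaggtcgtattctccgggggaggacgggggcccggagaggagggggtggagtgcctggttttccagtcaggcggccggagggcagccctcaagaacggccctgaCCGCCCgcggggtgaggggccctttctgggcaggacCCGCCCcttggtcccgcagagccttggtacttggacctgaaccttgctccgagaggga

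The GC box was present in 9 of the 10 member windows, ACAA2 being the exception, and in 66.9% of 15787 windows of the same length over the genes of the table. CCAAT was present in CPT1A, CPT2 and HADH, which is 3 of 10 members against 36.2% of all windows. AGGTCA was found in none of the 10 windows and in 11.2% of all, CACGTG in none and in 9.5%, TGACGTCA in none and in 2.98%, and the pair of half-sites in none and in 0.038%. The member windows held 19 to 37 CpG dinucleotides, against a median of 25 over all windows. These matches describe the letters of short windows only.

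Per kilobase of canonical transcript, the members stood at unequal levels, and levels between genes are compared on this scale only. In HG medium HADHA was highest at 159 ± 1.41 CPM per kb (SD, n = 3, as for all values below), followed by ACADVL at 138 ± 5.63, HADHB at 109.8 ± 4.88 and ECHS1 at 95.4 ± 8.73. ACADM at 25.6 ± 5.28, ACAA2 at 24.1 ± 0.884, CPT1A at 23.3 ± 1.95 and HADH at 23.2 ± 1.84 did not differ beyond their spread. ACADS at 18.6 ± 1.60 and CPT2 at 6.87 ± 0.332 CPM per kb came last. CPT2 was also last in the other 3 groups, with 5.32 ± 1.14 in LG, 3.89 ± 0.504 in LGV and 7.39 ± 0.288 in HGV. With the length of all annotated exons in its place, an alternative chosen after seeing the data, HADHA stayed first and CPT2 last in HG, but ECHS1 moved up to the second place at the same value and ACADM fell to 4.21 CPM per kb.

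**Figure D1:**
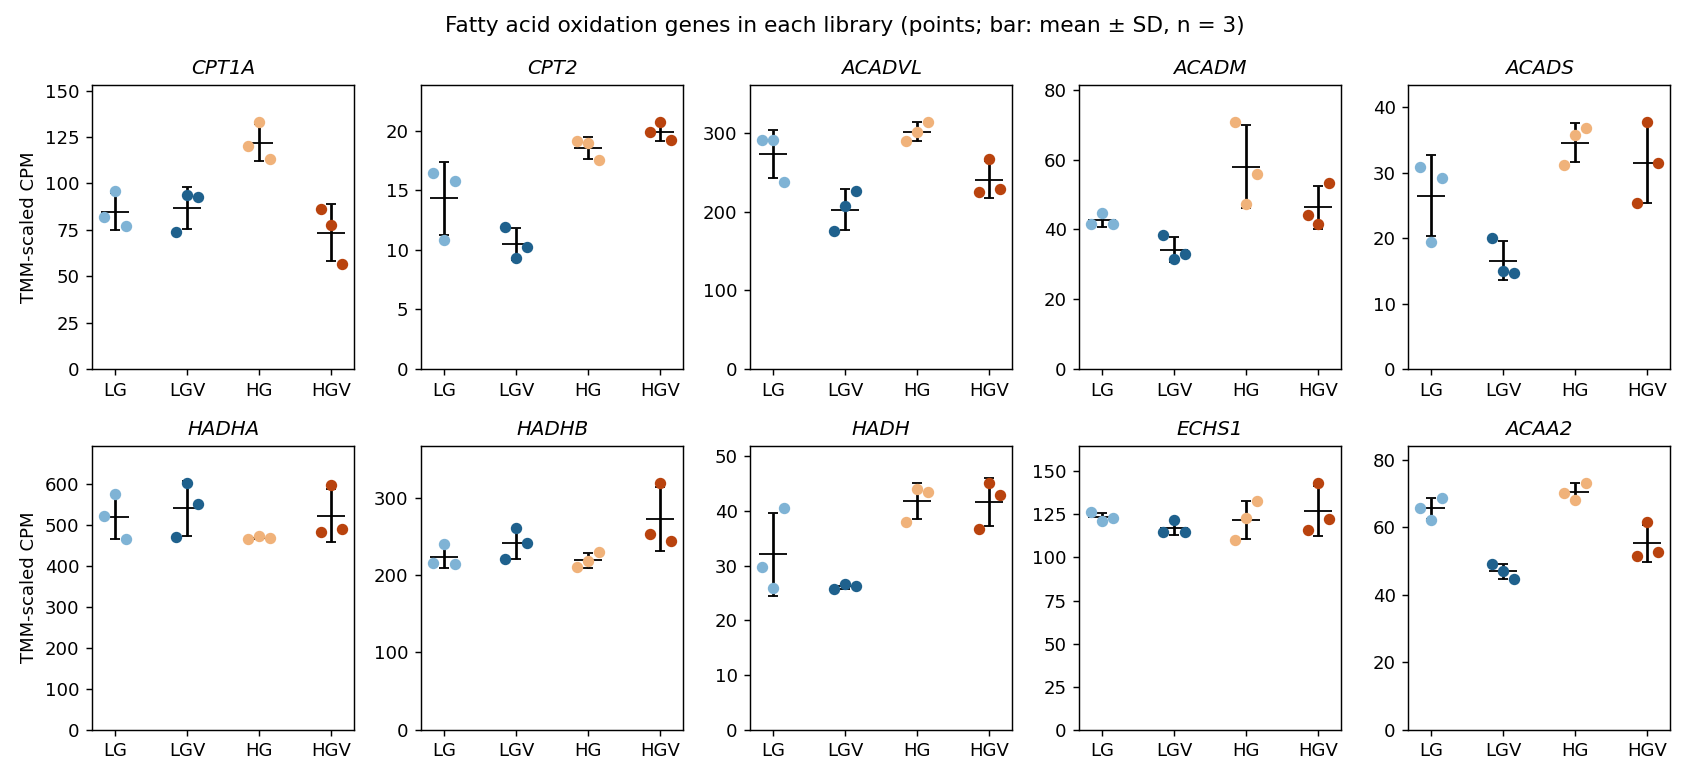
TMM-scaled CPM (vertical axes, each from 0) of the 10 fatty acid oxidation genes in every library of LG, LGV, HG and HGV, with the mean ± SD of 3 libraries as bars. CPT1A stands highest in HG, CPT2 and HADH stand lowest in LGV, and ACAA2 is lower in each medium with VPA.

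The first comparison asks how 20 mM glucose changed the pathway. Higher expression in HG than in LG was called for CPT1A and ACADM, which is 2 of 10 members (edgeR quasi-likelihood F test, FDR ≤ 0.05), and no member was called lower. Of all 15452 genes tested, 24.7% were called, 12.0% higher and 12.7% lower. Counted in either direction, the share of members was near that of all genes. Both member calls were higher, where 12.0% of all genes were, and this difference was not tested. At an unadjusted p under 0.05, 5 of 10 members passed, against 37.9% of all genes. The median log2 fold change was 0.28 over the members and 0.01 over all genes. In bulk RNA, fewer cells of a type and less RNA per cell cannot be told apart. Where 1 glucose comparison and 1 VPA comparison use the same libraries (HG in both HG against LG and HGV against HG, for example), they are not independent, and their values are given side by side only. Sample labels do not say whether the 3 libraries of a group came from separate cultures, so p-values measure the spread between these libraries.

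In VPA-treated cells, the same step in glucose called 4 of 10 members higher in HGV than in LGV (CPT2, ACADM, ACADS and HADH) and none lower. The background was 40.7% of 16208 genes, 21.2% higher and 19.5% lower. Counted in either direction, the member share was again near it. All 4 member calls were higher, where 21.2% of all genes were, and this difference was not tested. The median log2 fold change was 0.22 over the members (0.14 without HGV replicate 2) and 0.01 over all genes. These libraries are not shared with HG and LG, and ACADM was called in both glucose comparisons. The share of all genes called higher in both was not counted. CPT2, ACADS and HADH had unadjusted p of 0.0304, 0.0223 and 0.0204 in HG against LG, where they missed the threshold.

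The second comparison asks what VPA did in each medium. In HG medium, CPT1A, ACADVL and ACAA2 were called lower with VPA and HADHB higher, which is 4 of 10 members against 46.1% of 16188 genes (25.8% higher, 20.2% lower). In LG medium, ACADVL, ACADS and ACAA2 were called lower and none higher, which is 3 of 10 members against 41.6% of 15944 genes (21.7% higher, 19.9% lower). Counted in either direction, neither share of members was above that of all genes. Called lower were 3 of 10 members in each medium, against 20.2% of all genes in HG and 19.9% in LG medium. This difference was not tested. The member medians were -0.07 in HG medium and -0.29 in LG medium, against 0.02 and -0.01 over all genes. Scaled by library size only, the member medians were 0.05 and -0.13, against 0.15 and 0.16 over all genes with that scaling. With TMM factors and without HGV replicate 1, the member median in HG medium was 0.04, against 0.02 over all genes. Without LG replicate 3, that in LG medium was -0.18, against 0.02. ACADVL and ACAA2 were lower with VPA in both media, in libraries that are not shared. The share of all genes called lower in both media was not counted. Each of these calls was lost when scaled by library size only.

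Whether VPA acted differently in the 2 media was tested as an interaction over all 12 libraries. No member passed (edgeR quasi-likelihood F test), and 0.0427% of 16389 genes did. At an unadjusted p under 0.05 there were 3 members, CPT1A, CPT2 and ACADS, against 11.3% of all genes, and edgeR's likelihood ratio test and DESeq2's Wald test each called 1 member, CPT1A.

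**Figure D2:**
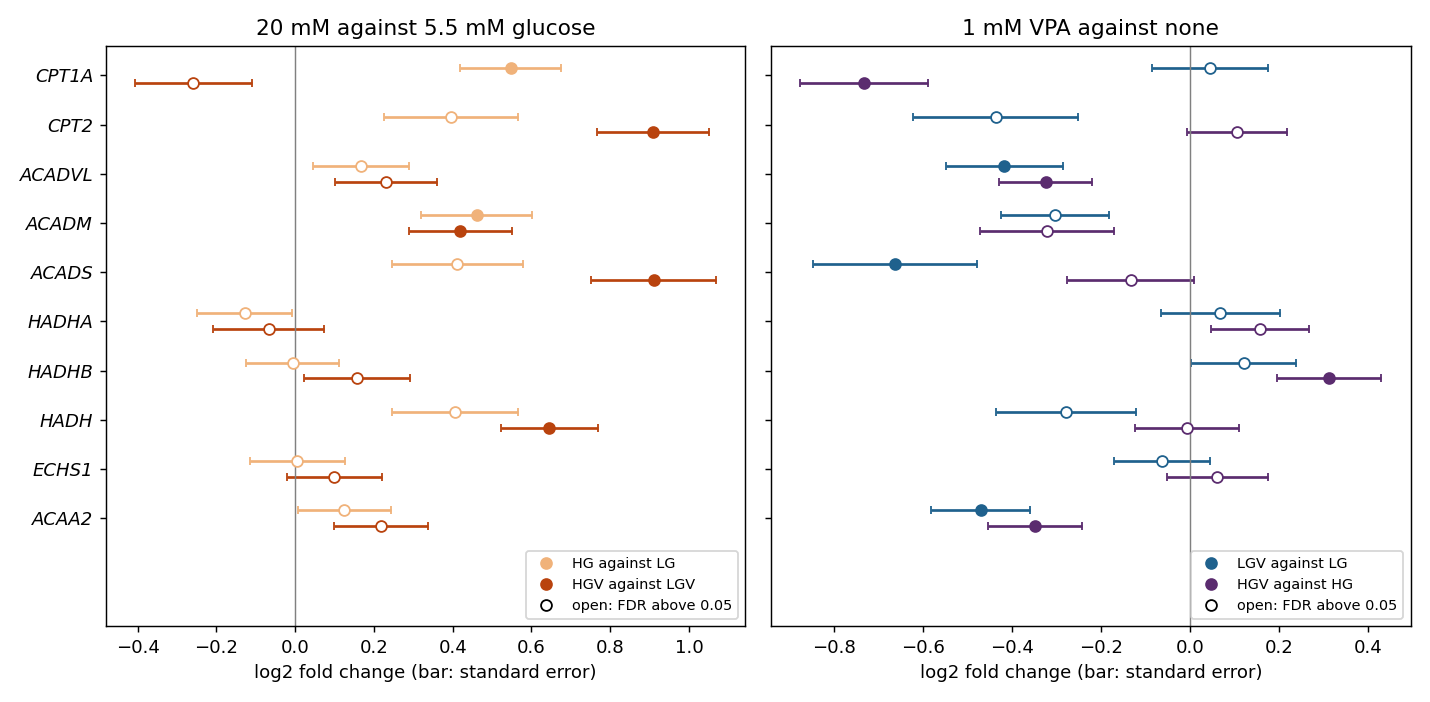
Log2 fold change (horizontal axis) of each gene with its standard error as the bar, for 20 mM against 5.5 mM glucose on the left and for VPA against none on the right. Filled points passed FDR ≤ 0.05: 2 genes in HG against LG, 4 in HGV against LGV, 3 in LGV against LG and 4 in HGV against HG.

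CPT1A (ENSG00000110090, chr11:68522088-68611878 of GRCh37, minus strand, 19 exons in the canonical transcript) encodes the liver form of carnitine palmitoyltransferase I, which sets the pace of long-chain oxidation and is inhibited by malonyl-CoA. It stood at 81.9, 95.8 and 76.9 CPM in LG and at 120.0, 133 and 113 in HG. With VPA it stood at 74.0, 93.7 and 92.7 in LGV and at 86.1, 77.8 and 56.4 in HGV. All HG libraries were above all LG and all HGV libraries, while LG and LGV overlapped. The log2 fold change was 0.55 (SE 0.13, FDR = 0.00469, edgeR) in HG against LG and -0.73 (SE 0.14, FDR = 0.00117) in HGV against HG. In LGV against LG it was 0.04 (SE 0.13, FDR = 0.814), and in HGV against LGV it was -0.26 (SE 0.15, FDR = 0.172). The interaction was -0.77 (SE 0.20, unadjusted p = 0.00127 in edgeR), with an FDR of 0.132. Both of its calls were kept under the 16 alternatives run.

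CPT2 (ENSG00000157184, chr1:53662464-53679869, plus strand, 5 exons), the inner membrane partner that hands the acyl group back to CoA, stood at 16.5, 10.8 and 15.8 CPM in LG, 12.0, 9.29 and 10.2 in LGV, 19.2, 19.0 and 17.5 in HG and 19.9, 20.8 and 19.2 in HGV. Every library in HG medium, with or without VPA, was above every library in LG medium. HGV exceeded LGV by 0.91 (SE 0.14, FDR = 9.13e-05, edgeR), a 1.88-fold difference. The step from LG to HG was 0.40 (SE 0.17, FDR = 0.0933), and it was called when LG replicate 3 was left out. VPA gave -0.44 (SE 0.19, FDR = 0.0718) in LG medium and 0.10 (SE 0.11, FDR = 0.474) in HG medium. Leaving out LG replicate 2, the lowest LG library, brought the first of these below the threshold. The exons of CPT2 overlap, on the opposite strand, those of the lncRNA ENSG00000236723 by 1151 bases, 919 of them in the canonical transcript, and those of C1orf123 by 99 bases. The lncRNA was not analysed here. C1orf123 was at 26.9 CPM in LG, 10.3 in LGV, 35.9 in HG and 18.4 in HGV. It fell with VPA in both media, by 1.38 and 0.96 on the log2 scale. Like CPT2, it was called higher in HGV than in LGV (0.83, FDR = 0.000148, edgeR). It was also higher in HG than in LG (0.43, FDR = 0.0343), a call lost in 7 of 16 alternatives. Use of read strand in the counting is not given in the sources used here, and the part of C1orf123 in the CPT2 values was not tested.

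The rest of the carnitine shuttle was a list of 5 genes. In HG against LG, 1 of 4 tested was called, near the 24.7% of all genes. In HGV against HG all 5 were, with 2 higher and 3 lower, against 46.1%. In LGV against LG 1 of 4 was called lower, where 19.9% of all genes were. In HGV against LGV 4 of 5 were called, 3 higher and 1 lower, against 40.7%. SLC25A20, the carrier that exchanges acylcarnitine for carnitine across the inner membrane, stood at 18.3, 15.5 and 18.3 CPM in LG and at 25.4, 23.1 and 25.3 in HG. It was higher by 0.52 (SE 0.15, FDR = 0.0140, edgeR), a call lost without HG replicate 3. With VPA, SLC25A20 was 0.99 higher in HGV than in LGV (FDR = 1.98e-05). CPT1C, the form of carnitine palmitoyltransferase I best known from brain, had 2, 7 and 2 reads in HG and 50, 60 and 38 reads in HGV, so its HG level was at or near the floor in every library. CRAT, carnitine acetyltransferase, fell with VPA by 0.73 (SE 0.17, FDR = 0.00378) in LG medium.

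The acyl-CoA dehydrogenases are flavoproteins that take the first step of the cycle and differ in the chain length they accept. ACADVL (ENSG00000072778, chr17:7120444-7128585, plus strand, 20 exons), the very long chain enzyme, stood at 291, 291 and 238 CPM in LG and at 175, 207 and 226 in LGV. In HG medium it stood at 289.9, 302 and 314 without VPA and at 226, 268 and 229.7 with it. The groups with and without VPA did not overlap in either medium, though LG replicate 3 came close to the LGV libraries. The change was -0.42 (SE 0.13, FDR = 0.0191, edgeR) in LG medium and -0.33 (SE 0.10, FDR = 0.0218) in HG medium. Both calls were lost when scaled by library size only. The first was also lost without LG replicate 1 or LGV replicate 1. The second was also lost with upper quartile scaling and without HG replicate 2, HG replicate 3, HGV replicate 1 or HGV replicate 3. Glucose gave 0.17 (FDR = 0.335) without VPA and 0.23 (FDR = 0.168) with it. The exons of ACADVL overlap those of DLG4 on the opposite strand by 49 bases outside the canonical transcript, and DLG4 was between 2.04 and 7.16 CPM in the group means.

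ACADM (ENSG00000117054, chr1:76190116-76253260, plus strand, 12 exons), the medium chain enzyme, stood at 41.6, 44.7 and 41.6 CPM in LG and at 70.8, 47.2 and 55.8 in HG. It stood at 38.3, 31.4 and 33.0 in LGV and at 44.2, 41.6 and 53.3 in HGV. Each high-glucose group was above its low-glucose group without overlap, and HG was the widest, with 1 library at 70.8. High glucose raised it by 0.46 (SE 0.14, FDR = 0.0237, edgeR) without VPA and by 0.42 (SE 0.13, FDR = 0.0160) with it. The first call was lost without HG replicate 1, HG replicate 3 or LG replicate 1, and the second without HGV replicate 3, LGV replicate 2 or LGV replicate 3. VPA gave -0.30 (SE 0.12, FDR = 0.0575) in LG medium and -0.32 (SE 0.15, FDR = 0.0998) in HG medium, and the interaction was -0.00 (SE 0.20). ACADM shares 157 exon bases outside its canonical transcript with RABGGTB on the same strand, which was lower in HG than in LG (-0.40, FDR = 0.0438) and in HGV than in LGV (-0.56, FDR = 0.00569). The first of these calls of RABGGTB was lost in 11 of 16 alternatives. A further 1354 exon bases, also outside the canonical transcript, overlap the pseudogene RP4-682C21.2 on the opposite strand, which was at 0.285 to 0.447 CPM in the group means.

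ACADS (ENSG00000122971, chr12:121163577-121177811, plus strand, 10 exons), the short chain enzyme, stood at 30.9, 19.4 and 29.2 CPM in LG, 20.1, 14.9 and 14.7 in LGV, 31.2, 35.7 and 36.9 in HG and 25.3, 37.76 and 31.5 in HGV. LGV was the lowest group, and only LG replicate 2 reached into its range. VPA lowered it in LG medium by 0.66 on the log2 scale (SE 0.18, FDR = 0.00982, edgeR), a call lost without LG replicate 1 or LGV replicate 3 and when scaled by library size only. In HG medium VPA gave -0.13 (SE 0.14, FDR = 0.473). HGV exceeded LGV by 0.91 (SE 0.16, FDR = 0.000242), whereas HG against LG gave 0.41 (SE 0.17, FDR = 0.0751) and was called without LG replicate 3. The interaction was 0.54 (SE 0.25, unadjusted p = 0.0418), with an FDR of 0.419.

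Of the list of related acyl-CoA dehydrogenases, 3 of 6 were called in HG against LG and 5 of 6 in HGV against LGV, all of them higher. Of all genes, 12.0% and 21.2% were called higher there. ACAD10 led the list in both, at 0.77 (FDR = 0.000984, edgeR) and 1.05 (FDR = 8.54e-06). In the VPA comparisons 41.6% of all genes were called in LG medium (19.9% lower) and 46.1% in HG medium (20.2% lower). With VPA in LG medium 3 of 6 fell, led by IVD, isovaleryl-CoA dehydrogenase of leucine breakdown, at -0.83 (SE 0.16, FDR = 0.000740). In HG medium 2 fell and GCDH, the glutaryl-CoA dehydrogenase of lysine breakdown, rose by 0.87 (SE 0.12, FDR = 7.08e-05). ETFB, a subunit of the electron transfer flavoprotein that takes the electrons from these dehydrogenases, fell with VPA by 0.44 (FDR = 0.0127) in LG and 0.56 (FDR = 0.00223) in HG medium, the first of which was lost without LGV replicate 1 or LGV replicate 3 and when scaled by library size only. It was the 1 gene of 3 called in that list, and ETFA and ETFDH did not pass in any comparison.

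For long chains, the steps of the cycle after the first dehydrogenation are carried out by the trifunctional protein. HADHA (ENSG00000084754, chr2:26413504-26467540, minus strand, 20 exons) encodes the subunit that hydrates and dehydrogenates long chains, and HADHB (ENSG00000138029, chr2:26466038-26513333, plus strand, 16 exons) the subunit with the thiolase. HADHA stood at 521, 574 and 465 CPM in LG, 469, 602 and 549 in LGV, 464, 472 and 468 in HG and 482, 596 and 488 in HGV. No comparison of HADHA passed, and its log2 fold changes lay between -0.13 (HG against LG, FDR = 0.459) and 0.16 (HGV against HG, FDR = 0.270). HADHB stood at 216, 241 and 215 CPM in LG, 222, 261 and 241 in LGV, 210.0, 218 and 229 in HG and 253, 319.8 and 244 in HGV. All HGV libraries of HADHB were above all HG libraries, and replicate 2 was the highest HGV library for both genes. HADHB rose by 0.31 (SE 0.12, FDR = 0.0460, edgeR) in HGV against HG. That call was lost in 8 of 16 alternatives, which included leaving out any 1 HG library, HGV replicate 1 or HGV replicate 2. In LGV against LG it gave 0.12 (SE 0.12, FDR = 0.451).

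Since both subunits are built into the same complex and both genes start from the same stretch of chromosome 2, their ratio was followed within each library. The mean log2 ratio of HADHA to HADHB was 1.21 ± 0.0858 in LG, 1.16 ± 0.0674 in LGV, 1.10 ± 0.0587 in HG and 0.94 ± 0.0537 in HGV. All HGV libraries were below all HG libraries, at 0.93, 0.90 and 1.00 against 1.14, 1.11 and 1.03, whereas LG and LGV overlapped. They were also below all LGV libraries, at 1.08, 1.21 and 1.19, whereas HG and LG overlapped. The difference of this ratio between media was not tested. VPA lowered the ratio by 0.10 on average over the media (two-sided exact permutation test within medium, p = 0.04, 400 permutations, smallest possible p = 0.005). With labels exchanged only within same-numbered pairs, the replicate block, p was 0.156 and the difference was not called. Leaving out 1 library at a time gave p from 0.01 to 0.105, and the call was lost without replicate 1 or 2 of LG, HG or HGV and without LGV replicate 1, which gave the highest p.

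**Figure D3:**
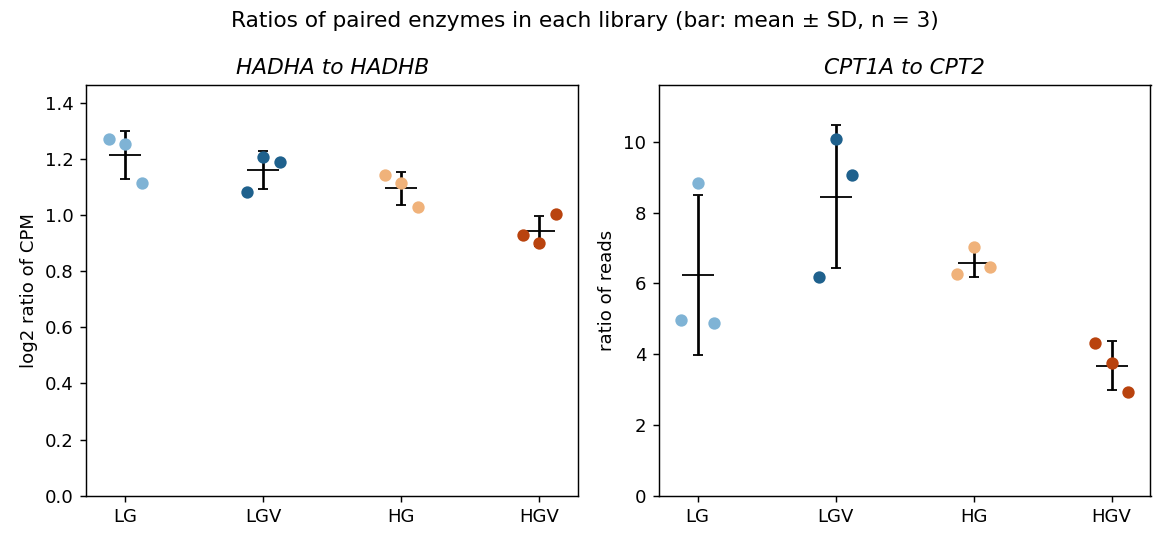
Log2 ratio of HADHA to HADHB in CPM (left) and ratio of CPT1A to CPT2 reads (right) in each library of LG, LGV, HG and HGV, with the mean ± SD of 3 libraries as bars. HGV has the lowest mean in both panels, 0.94 on the left and 3.67 on the right, and LG and LGV overlap in both.

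HADH (ENSG00000138796, chr4:108910870-108956397, plus strand, 8 exons), the dehydrogenase for medium and short 3-hydroxyacyl-CoA, stood at 29.7, 25.9 and 40.6 CPM in LG and at 25.8, 26.7 and 26.3 in LGV. It stood at 38.0, 43.99 and 43.4 in HG and at 36.7, 45.2 and 42.9 in HGV. LG replicate 3 was as high as the HG libraries, and the 3 LGV libraries differed by less than 1 CPM. HGV exceeded LGV by 0.65 (SE 0.12, FDR = 0.000473, edgeR), a 1.56-fold difference. HG against LG gave 0.41 (SE 0.16, FDR = 0.0706), which was called without LG replicate 3. VPA gave -0.28 (SE 0.16, FDR = 0.176) in LG medium and -0.01 (SE 0.12, FDR = 0.964) in HG medium.

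ECHS1 (ENSG00000127884, chr10:135175989-135186858, minus strand, 8 exons), the short chain enoyl-CoA hydratase, ranged from 110.3 to 143 CPM over the 12 libraries. Its log2 fold changes lay between -0.06 (LGV against LG, SE 0.11, FDR = 0.680, edgeR) and 0.10 (HGV against LGV, SE 0.12, FDR = 0.537). No alternative called it in any comparison.

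ACAA2 (ENSG00000167315, chr18:47308534-47340323, minus strand, 10 exons), the thiolase that releases acetyl-CoA from medium chains, stood at 65.8, 62.3 and 68.7 CPM in LG and at 49.0, 47.1 and 44.7 in LGV. It stood at 70.0, 68.1 and 73.2 in HG and at 51.6, 61.6 and 52.6 in HGV. The libraries with VPA were below those without it in both media. VPA lowered it by 0.47 (SE 0.11, FDR = 0.00356, edgeR) in LG medium and by 0.35 (SE 0.11, FDR = 0.0164) in HG medium. The first was lost only when scaled by library size (FDR = 0.0514) among 16 alternatives, and the second also without HG replicate 3, HGV replicate 1 or HGV replicate 3. Glucose gave 0.13 (FDR = 0.467) without VPA and 0.22 (FDR = 0.153) with it, although all HGV libraries were above all LGV libraries. On the same strand, 385 of its exon bases are shared with a gene annotated as ENSG00000266997, which was not analysed here.

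Counts of groups that did not overlap were read against all genes. Of the members, 4 did not overlap between HG and LG (41.2% of all genes), 6 between HGV and HG (54.6%), 3 between LGV and LG (50.5%) and 5 between HGV and LGV (51.4%). None of these counts was read as a result about the members.

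The 12 lists of the wider pathway were chosen with earlier results of these data known. Their shares therefore describe the lists and are no test of them. The lists named 77 genes, of which 74 were in the table. Of those tested, 35 of 73 (47.9%) were called in HG against LG (26 higher, 9 lower), against 24.7% of all genes. In HGV against HG it was 43 of 74 (58.1%, 17 higher, 26 lower), against 46.1%. LGV against LG gave 38 of 73 (52.1%, 11 higher, 27 lower), against 41.6%. HGV against LGV gave 44 of 74 (59.5%, 31 higher, 13 lower), against 40.7%. The medians of these pathway genes were 0.21, -0.07, -0.21 and 0.22, against 0.01, 0.02, -0.01 and 0.01 over all genes. In the interaction none of the 74 passed edgeR's quasi-likelihood test, and 9 of them (12.2%) had an unadjusted p under 0.05, against 11.3% of all genes.

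For fatty acid uptake and activation, 6 of 10 genes were called in HG against LG (5 higher, 1 lower) and 6 in HGV against HG (3 and 3). There were 6 in LGV against LG (4 and 2) and 7 in HGV against LGV (4 and 3). The shares of all genes called were 24.7%, 46.1%, 41.6% and 40.7% in the same order. CD36, a fatty acid translocase, was the largest change in 3 of these comparisons, at 1.26 in HG against LG (log2) and 2.64-fold in HGV against HG. It had only 4 to 26 reads in any library without VPA. Its call in HG against LG was lost by DESeq2's Wald test and without HG replicate 2 or LG replicate 1. In LG medium ACSL6, a long chain acyl-CoA synthetase, rose most with VPA, by 1.36 (SE 0.31, FDR = 0.00270, edgeR).

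Of the genes that activate medium-chain acids, 5 of 5 were called higher in HG against LG (12.0% of all genes called higher) and 4 of 5 in HGV against LGV (21.2%). With VPA, 4 of 5 were called lower in HG medium (20.2% of all genes called lower) and 3 of 5 in LG medium (19.9%), and none higher. ACSM5 stood at 4.38, 2.47 and 5.64 CPM in LG, 2.16, 1.46 and 0.961 in LGV, 8.91, 8.49 and 8.71 in HG and 3.37, 4.07 and 5.18 in HGV. Its HG libraries were above all others. It was higher in HG than in LG by 1.09 (SE 0.24, FDR = 0.00278, edgeR) and fell with VPA in HG medium by 1.05 (SE 0.17, FDR = 0.000297). ACSM2A, with -1.68 in LGV against LG and 1.72 in HGV against LGV, has the near-identical neighbour ACSM2B, so the split of reads between the pair is uncertain.

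Among the auxiliary enzymes for unsaturated and branched chains, ECI1, which shifts double bonds so that the cycle can go on, fell with VPA by 0.84 (SE 0.11, FDR = 3.09e-05, edgeR) in LG and by 0.59 (SE 0.14, FDR = 0.00451) in HG medium. That list had 3 of 5 called in each VPA comparison, 3 lower in LG medium and 2 lower and 1 higher in HG medium. Of all genes, 41.6% were called with VPA in LG medium and 46.1% in HG medium. In HG against LG it had DECR1 higher (0.69, lost without LG replicate 1) and AMACR lower (-0.79, lost without HG replicate 2, HG replicate 3 or LG replicate 1), and in HGV against LGV DECR1 alone was called (0.44, FDR = 0.0147, lost without LGV replicate 2 or LGV replicate 3). Mitochondrial thioesterases were mixed, with 4 of 6 called in each glucose comparison (2 higher, 2 lower). All-gene shares were 24.7% in HG against LG and 40.7% in HGV against LGV. With VPA, 5 of 6 were called in HG medium (4 higher, 1 lower), against 46.1% of all genes. In LG medium 3 of 6 were called (2 higher, 1 lower), against 41.6%. ACOT2, which cleaves long acyl-CoA in the matrix and has the near-identical paralog ACOT1, stood at 44.3, 40.9 and 41.5 CPM in LG and at 17.4, 18.1 and 16.3 in LGV. It fell by 1.28 (FDR = 1.45e-06) there and by 1.29 (FDR = 1.31e-05) in HG medium. ACOT11 led the list in both glucose comparisons, at 1.21 and 1.16.

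Of the ketone body enzymes, BDH1, 3-hydroxybutyrate dehydrogenase, stood at 76.7, 71.9 and 65.8 CPM in LG, 24.4, 25.0 and 24.4 in LGV, 68.3, 59.4 and 60.0 in HG and 17.2, 19.7 and 19.9 in HGV. It fell by 1.53 (SE 0.11, FDR = 1.79e-07) in LG and 1.72 (SE 0.11, FDR = 2.05e-07) in HG medium.

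Of the 12 peroxisomal oxidation genes, 8 were called lower with VPA in LG medium (66.7%, against 19.9% of all genes called lower) and 5 in HG medium (41.7%, against 20.2%), with none called higher. The others did not pass. EHHADH, the bifunctional enzyme of the peroxisome, stood at 19.4, 15.4 and 26.96 CPM in LG, 8.40, 5.001 and 5.55 in LGV, 37.2, 31.4 and 33.0 in HG and 15.8, 13.5 and 14.9 in HGV. Its groups did not overlap in any of the 4 comparisons. The changes were -1.69 (SE 0.23, FDR = 4.35e-05, edgeR) with VPA in LG medium, -1.20 (SE 0.12, FDR = 5.76e-06) in HG medium and 0.74 (SE 0.18, FDR = 0.00514) in HG against LG. In HG against LG, 4 of 12 were called (3 higher, 1 lower), against 24.7% of all genes. In HGV against LGV, 6 of 12 were called (5 higher, 1 lower), against 40.7%.

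Of the 7 transcriptional regulators, 3 were called in HG against LG, all lower, and 3 in HGV against LGV, all lower. Of all genes, 12.7% and 19.5% were called lower in these comparisons. ESRRA, an orphan nuclear receptor that drives oxidative genes, led the first at -0.76 (SE 0.14, FDR = 0.000853, edgeR), and its partner PPARGC1A the second at -0.67 (SE 0.13, FDR = 0.000714). With VPA, 5 of 7 were called in HG medium (3 higher, 2 lower), against 46.1% of all genes. In LG medium 3 of 7 were called (2 higher, 1 lower), against 41.6%. PPARGC1B, the second coactivator of this family, rose from 34, 22 and 63 reads in LG to 206, 155 and 248 in LGV and from 53, 64 and 43 in HG to 248, 275 and 273 in HGV. The changes were 2.40 (SE 0.31, FDR = 2.70e-05) and 2.21 (SE 0.20, FDR = 2.48e-06). Of the 5 PPARA targets outside the pathway, 4 were called in HG against LG (3 higher, 1 lower), against 24.7% of all genes. In HGV against HG 3 were called (all higher), against 46.1%. In LGV against LG 2 were called (both higher), against 41.6%. In HGV against LGV 3 were called (2 higher, 1 lower), against 40.7%. PDK4, which restrains glucose oxidation, had 6, 9 and 5 reads in LG and 33, 29 and 33 in LGV (2.29, SE 0.38, FDR = 0.000218).

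In the list for malonyl-CoA and AMPK control, 1 of 5 was called in HG against LG and 4 in HGV against LGV. Shares of all genes called there were 24.7% and 40.7%. With VPA, 1 was called in HG medium and 3 in LG medium, against 46.1% and 41.6% of all genes. ACACA, the carboxylase that makes malonyl-CoA in the cytosol, fell with VPA by 0.90 (SE 0.11, FDR = 1.56e-05, edgeR) in LG and 0.79 (SE 0.10, FDR = 4.31e-05) in HG medium. ACACB, its mitochondrial counterpart, was 0.46 higher in HG than in LG (FDR = 0.0480), a call lost in 8 of 16 alternatives, among them the replicate block and leaving out any 1 HG library, LG replicate 1 or LG replicate 2. MLYCD, which degrades malonyl-CoA, was 0.73 higher in HGV than in LGV (FDR = 0.00538).

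**Figure D4:**
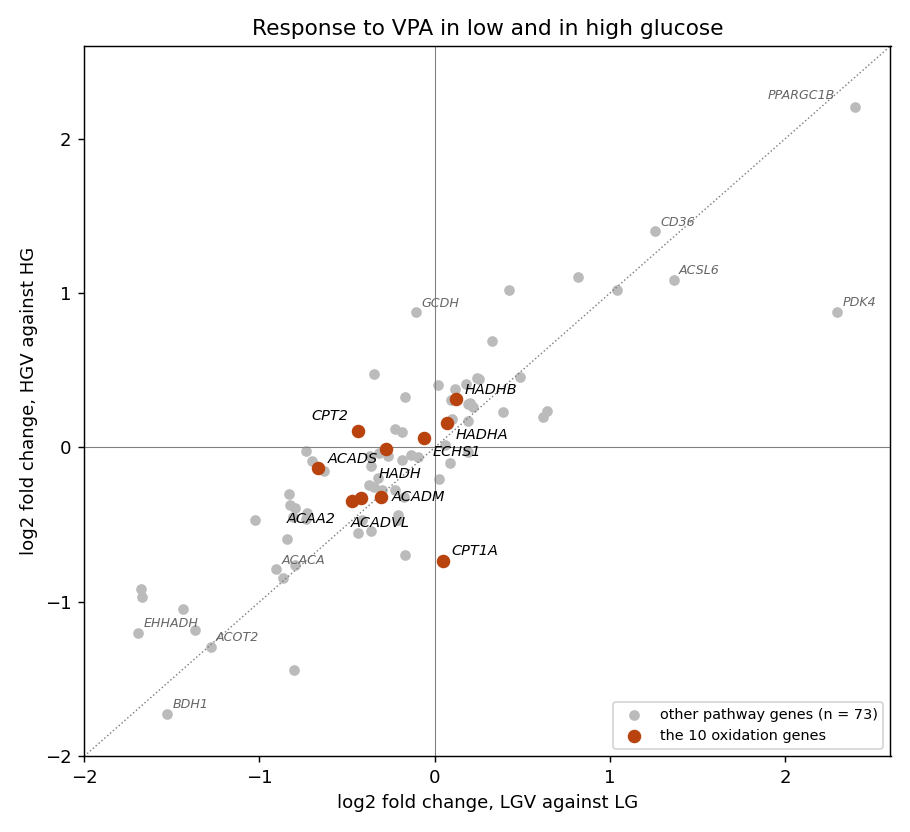
Log2 fold change with VPA in LG medium (horizontal axis) against HG medium (vertical axis) for the 10 fatty acid oxidation genes and for 73 other genes of the pathway lists, with the diagonal dotted. ACADVL and ACAA2 lie in the lower left, CPT1A lies below the diagonal at 0.04 and -0.73, and BDH1 and PPARGC1B lie farthest out on the lower left and upper right.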

How the data were processed

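RNA was sequenced from 12 HepG2 libraries, 3 each of LG, HG, LGV and HGV. Trimmed single-end reads had been mapped to GRCh37 by STAR, and featureCounts had assigned them to Ensembl genes. The values the authors deposited are these raw counts, unnormalized, for 16389 genes. Genes that averaged fewer than 10 reads per sample had been omitted. Base calling by bcl2fastq 2.17.1.14 is named in the submitters' processing notes. Total counts ran from 29798442 to 45572694 per library.

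Genes were tested with edgeR 4.0.16 (TMM factors, quasi-likelihood F test) in R 4.3.3. A gene needed a mean count of at least 10 in the libraries compared and was called at an FDR of 0.05 or less, adjusted over all genes tested. Standard errors were taken from the log2 fold change and its F statistic. Fold changes use TMM factors of the libraries compared, CPM those of all 12. Alternatives covered DESeq2 1.42.0, other scalings, filters and thresholds, the replicate number as a block, and leaving out each library. The exact permutation test of the HADHA to HADHB ratio exchanged VPA labels within each medium. The tests were also run on simulated data. Coordinates, overlapping exons and promoter windows were read from the GENCODE annotation of GRCh37, in which 97.47% of gene identifiers were found. Replicates of a group differed by more than sampling noise.

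All members were named. Of each pathway list, the called gene with the largest change in each pairwise comparison was named, any called gene where at most 2 were called, and genes whose exons overlap a member. Members and lists were chosen with earlier results of these data known. The motifs and the ratio of CPT1A to CPT2 were chosen after the values were seen, and a few further genes named for context fall outside the rule. Some genes that meet the rule are not reported here.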

Additional observations from a re-analysis of the deposited data

Results flagged for a closer look

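The libraries with VPA lay on opposite sides of the untreated mean of CPT2 in the 2 media, although neither VPA comparison of this gene passed by itself. All HGV libraries were above the HG mean of 18.6 CPM, at 19.9, 20.8 and 19.2, and all LGV libraries were below the LG mean of 14.4 CPM, at 12.0, 9.29 and 10.2. LG replicate 2, at 10.8 CPM, lay within the range of the LGV libraries. The test of this difference gave an interaction of 0.55 on the log2 scale (SE 0.22, unadjusted p = 0.0207 in edgeR), with an FDR of 0.328 over all genes. CPT2 was flagged among the 10 members by these same values, so this p is not independent of the choice. How many of all genes show such a pattern was not counted.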

How the results depend on the processing

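Of 13 calls of members in the 4 pairwise comparisons, 5 were kept under each of the 16 alternatives (CPT1A in HG against LG and in HGV against HG, and CPT2, ACADS and HADH in HGV against LGV), and 8 were lost under at least 1. No call of a member, or of a pathway gene in the comparison it was named for, changed direction. Members called in HG against LG (2) became 5 with upper quartile scaling and 1 at an FDR of 0.01, and ranged from 1 to 5 when leaving out 1 library at a time (5 without LG replicate 3). Members called in HGV against HG (4) became 1 at an FDR of 0.01 and ranged from 1 to 3 when leaving out a library (1 without HG replicate 3 or HGV replicate 1). Members called in LGV against LG (3) became 1 when scaled by library size only, with HADHB higher in place of the 3 lower genes, and ranged from 1 to 5 (1 without LG replicate 1, 5 without LG replicate 2). Scaling by library size only moved the median of all genes to 0.11 in HG against LG, 0.15 in HGV against HG and 0.16 in LGV against LG, and upper quartile scaling moved it to 0.10 in HG against LG and in HGV against LGV. Over all genes, an FDR of 0.01 gave 1852 calls in HG against LG and 4263 in HGV against LGV, and over the pathway lists 15 in HG against LG and 24 in LGV against LG. Leaving out a library gave 1933 to 5338 calls over all genes and 14 to 39 over the pathway lists in HG against LG. For the interaction, the 7 calls over all genes became 1 by library size only or at an FDR of 0.01, 202 by the likelihood ratio test and 162 by DESeq2, and 1 to 217 when leaving out a library. The members called there (0) became 1 by each of these tools, and 0 to 1 when leaving out a library (CPT1A without LG replicate 2). The cause of these shifts was not tested.

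Deviations of same-numbered libraries correlated from -0.29 to 0.41, and those of different numbers from -0.54 to 0.51. The same-numbered mean was the lower one in HG against LG and the higher one in the other comparisons. This leaves pairing undecided, and the numbers were not taken to pair the samples. With a replicate block, members called were 2 in HG against LG, 5 in HGV against HG, 4 in LGV against LG, 4 in HGV against LGV and 0 in the interaction, where 13 genes were called over all. The block added ACADM in HGV against HG and CPT2 in LGV against LG and changed no other call of a member. The HADHA to HADHB ratio changed by -0.10 with VPA, and with the block (labels exchanged within same-numbered pairs, exact permutation test) it was the same -0.10 with p = 0.156. Leaving out a library gave -0.13 to -0.084.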

Other observations

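The ratio of CPT1A to CPT2 reads, chosen after its values were seen and therefore given with no test, was 4.98, 8.85 and 4.87 in LG, 6.18, 10.1 and 9.07 in LGV, 6.25, 7.02 and 6.45 in HG and 4.33, 3.75 and 2.94 in HGV. All HGV libraries were below all libraries of the other 3 groups. LG replicate 2 stood apart from its group. The same library was the lowest of LG for CPT2, ACADS, HADH, ECHS1 and ACAA2. It was the highest of LG for CPT1A, ACADM, HADHA and HADHB.

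ACSL1, a long chain acyl-CoA synthetase noticed after the values were seen, stood at 114, 127 and 84.8 CPM in LG, 137, 159 and 137 in LGV, 51.4, 55.1 and 52.9 in HG and 104, 115 and 103 in HGV. It was lower in HG than in LG by 1.01 on the log2 scale (SE 0.14, FDR = 7.09e-05, edgeR), and VPA raised it by 1.02 (SE 0.10, FDR = 4.39e-06) in HG medium, in comparisons that share the HG libraries. In LG medium VPA raised ACSL1 by 0.42 (SE 0.14, FDR = 0.0288), a call lost without LG replicate 1, LG replicate 3 or LGV replicate 2. FABP1, the liver fatty acid binding protein, was 0.83 higher in HG than in LG (FDR = 0.0115, lost by DESeq2's Wald test and without HG replicate 1 or LG replicate 1) and fell with VPA by 1.02 in LG medium (FDR = 0.00449). PPARA itself was 0.66 lower in HG than in LG (SE 0.13, FDR = 0.00118) and 0.41 higher in HGV than in HG (FDR = 0.0171, lost without HG replicate 2, HG replicate 3 or HGV replicate 1).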
